A study of Homo sapiens with 33 samples.

Results

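Lysosomal hydrolases are the soluble enzymes that break down proteins, glycans, sulfated sugars and lipids in the acidic lumen of the lysosome. A listed set of 35 genes for such enzymes and their cofactors was examined, out of 19970 protein-coding genes on chromosomes 1 to 22 and X of the RefSeq annotation of hg38. It held 11 protease genes, 13 genes for glycosidases and an amidase of glycans, 6 sulfatase genes (the activating enzyme SUMF1 included) and 5 genes of lipid degradation (the cofactor precursor PSAP included). A gene was called strong in a library when the summit of at least 1 of the 10000 peaks of highest −log10 q lay within 5000 bp of either end of the gene. The word describes a rank within 1 library, and it is not an absolute amount of binding.

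The data were peak lists from CUT&Tag, in which an antibody, here against the HA tag, brings a transposase to its target so that the DNA around it is cut and tagged. All 33 libraries came from UACC-257 cells, a human melanoma line long in culture, with the genotype given as MITF knockdown and doxycycline as the treatment in every group, WT and Empty included. The 11 groups of 3 were wild-type MITF (WT), a group titled Empty, and 9 MITF mutants named as in the titles. Of these K243A, G244E and Y253A come first by number, E260A, Q261A, A264C and N278D follow, and rep217A and rep263A are named in another way. The labels do not explain rep217A and rep263A, and give neither the promoter of the expressed protein nor its amount. The lists of replicates 2 and 3 were identical in rep217A and again in rep263A, so each such pair was counted as 1 sample, leaving 31 distinct libraries. The labels do not say that replicates were separate cultures, so p-values measure only the spread between these samples, which may be technical.

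Depth differed between the groups, and every result that follows is to be read with it. Relative depth, the commonest background pileup recovered from the lists, was 1.1 to 1.2 in WT, 1.04 to 1.49 in A264C and 0.697 to 1.16 in E260A, N278D, Q261A and Y253A. It was 0.427 and 0.487 in rep263A, 0.276 and 0.348 in rep217A, 0.132 to 0.244 in K243A, 0.108 to 0.151 in G244E and at most 0.03 in Empty. The −log10 q was under 5 for 8690 to 9437 of these 10000 peaks in Empty, against 0 in every other library. Peaks cannot show expression, so the cell line could not be checked by its RNA. Of 8 melanocyte genes 5 were strong in every WT library, as were 0 of 6 hepatocyte, 0 of 6 keratinocyte and 0 of 6 lymphoid genes, and 21.4% of all genes. In G244E and in Empty the melanocyte count was 0. In E260A, G244E, Q261A, Y253A, rep217A and rep263A 1 lymphoid gene was strong in every library, as was 1 keratinocyte gene in E260A. These counts do not identify the cell line.

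MITF belongs to the MiT/TFE family of basic helix-loop-helix leucine zipper factors, with TFEB, TFE3 and TFEC. These factors bind E-boxes, of which CACGTG and CATGTG are the forms best known for the family. TFEB and TFE3 are known as regulators of lysosomal genes through a longer element, the CLEAR element, whose core holds GTCACGTG, and MITF is best known in melanocytes for pigmentation genes.

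Sequence upstream of the transcription start is shown for 5 genes on which the results turn: CTSA, NEU1 and GALNS, whose E-boxes lay within 100 bp of the WT summit, CTSD, whose WT summit lay elsewhere, and GLA, which held no such E-box. Each run is the 200 bases before the start, 5′ to 3′ on the strand of the gene, from RefSeq on GRCh38.p14, and capitals mark the E-box CACGTG or the other form, CATGTG, which reads CACATG on the opposite strand.
CTSA, chr20:45891135-45891334, plus strand: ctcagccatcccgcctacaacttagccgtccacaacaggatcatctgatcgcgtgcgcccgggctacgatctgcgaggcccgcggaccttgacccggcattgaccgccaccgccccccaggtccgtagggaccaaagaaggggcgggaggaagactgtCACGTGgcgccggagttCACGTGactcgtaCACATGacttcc
NEU1, chr6:31862822-31863021, minus strand: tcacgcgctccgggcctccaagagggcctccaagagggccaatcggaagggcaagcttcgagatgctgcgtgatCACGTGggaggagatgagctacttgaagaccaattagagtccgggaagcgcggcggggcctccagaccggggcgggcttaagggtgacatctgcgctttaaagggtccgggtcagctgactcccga
GALNS, chr16:88856948-88857147, minus strand: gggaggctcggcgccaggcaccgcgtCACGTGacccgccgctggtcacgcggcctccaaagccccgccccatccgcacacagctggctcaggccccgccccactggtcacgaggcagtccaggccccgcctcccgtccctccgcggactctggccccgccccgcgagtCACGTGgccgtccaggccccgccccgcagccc
CTSD, chr11:1763928-1764127, minus strand: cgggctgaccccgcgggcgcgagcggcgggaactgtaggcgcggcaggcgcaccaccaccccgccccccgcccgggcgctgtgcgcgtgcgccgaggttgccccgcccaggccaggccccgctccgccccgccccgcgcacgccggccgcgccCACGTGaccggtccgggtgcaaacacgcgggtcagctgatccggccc
GLA, chrX:101407926-101408125, minus strand: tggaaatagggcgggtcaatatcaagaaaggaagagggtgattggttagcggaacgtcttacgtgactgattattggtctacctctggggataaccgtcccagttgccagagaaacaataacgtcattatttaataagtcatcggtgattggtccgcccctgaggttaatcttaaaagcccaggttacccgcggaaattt

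Promoters of 25 members were in the table used, each covering 250 bases before to 50 after the start. On either strand, CACGTG was found in 8 of these 25 genes (32.0%), namely CTSA, CTSD, CTSF, NEU1, GAA, GALNS, ARSB and SUMF1, and in 10.9% of all 15811 genes in the table. The longer GTCACGTG, each match of which contains CACGTG, was found in 6 members (24.0%) against 4.07% of genes. CATGTG was found in 6 members (24.0%) against 11.5%, among them TPP1, IDUA and PPT1. In CTSA the WT summits lay 6 to 14 bp from the first base of the nearest CACGTG, and in CTSF 16 to 25 bp from it. Among members in the table that were strong in every WT library, 6 of 13 (46.2%) held CACGTG, against 18.8% of all genes that were strong in every WT library. These matches describe letters in the window, not bound sites.

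With wild-type MITF most of the hydrolase genes had a strong peak, and with Empty few did. The number of strong members was 20, 20 and 20 of 35 in the WT libraries, against 24.1% to 24.3% of all protein-coding genes. It was 7, 8 and 4 in Empty, against 22.1% to 25.8% of all genes. The WT libraries thus stood above the share of all genes, while the Empty libraries stood from below that share to just past it. A264C was at 21, 22 and 21, and Q261A at 18, 18 and 18. The lowest variant was rep217A with 14 and 13. G244E had 14, 20 and 14 while 27.9% to 29.0% of all genes were strong there, and its middle library stood apart from the other two. Strong in every library of their group were 21 members in A264C, where 21.6% of all genes were, 16 in E260A (18.7%), 16 in Q261A (16.6%), 15 in K243A (20.4%), 15 in Y253A (17.0%), 14 in N278D (16.9%), 14 in rep263A (19.2%), 13 in rep217A (18.4%) and 11 in G244E (21.0%).

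**Figure D1:**
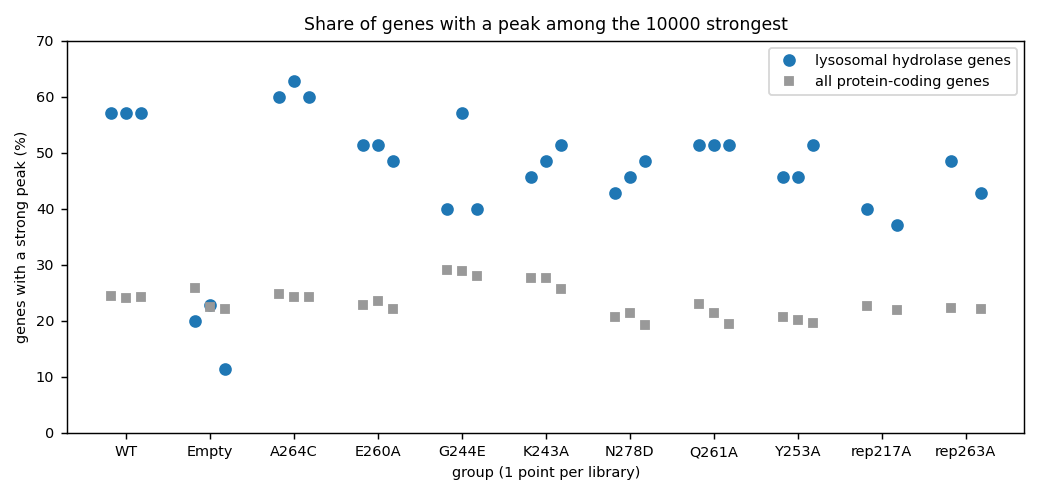
Share of genes with a strong peak (y axis, percent) in each of the 31 distinct libraries by group (x axis), for the 35 lysosomal hydrolase genes (circles) and all protein-coding genes (squares). WT stands at 57.1% and the Empty libraries at 11.4% to 22.9%, against 24.1% to 24.3% and 22.1% to 25.8% of all genes.

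In WT, 19 members were strong in all 3 libraries, where 21.4% of all protein-coding genes were. They were the proteases CTSA, CTSC, CTSD, CTSF and TPP1, the glycan enzymes GLA, GLB1, HEXA, NEU1, GAA, IDUA, NAGLU and AGA, the sulfatase genes GALNS, ARSA and SGSH, and the lipid genes ASAH1, SMPD1 and PSAP. In 15 of the 19 every WT summit lay within 250 bp of a gene end, and in 16 the summits of the 3 libraries fell within 10 bp of each other. The exceptions to the first count were CTSD, IDUA, AGA and ASAH1. Neither count has a share of all genes beside it here, so neither can be read as particular to the members. The deposited fold enrichment of the 19 ranged from 10.4 to 24.2 in WT. A peak is not tied to 1 gene, and for 13 of the 35 members the end of another protein-coding gene lay within 5000 bp of the WT summit. Among these the summit at CTSA was 79 bp from an end of NEURL2 and the summit at GLA 109 bp from an end of HNRNPH2.

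Only 2 members, NEU1 and GALNS, were strong in all 3 Empty libraries, where 8.01% of all genes were. At each of these 2 genes only 2 of the 3 Empty summits lay near the WT site. Strong in every WT library and in no Empty library were 8 members, against 3.61% of all genes: CTSA, CTSC, CTSD, CTSF, GLB1, HEXA, ARSA and SMPD1. No member was strong in every Empty library and in no WT library, where 0.996% of all genes were. At the other end, 14 members were strong in no WT library, against 72.9% of all genes: CTSB, CTSH, CTSL, CTSS, CTSZ, LGMN, GALC, MAN2B1, MANBA, FUCA1, IDS, ARSB, SUMF1 and LIPA. Over all WT libraries the ranks of these 14 ran from 10543, at SUMF1, to 153322, at GALC, where 1 WT library had no peak. CTSL stood just outside the threshold at 11046, 11152 and 11349, and AGA just inside it at 7116, 9885 and 9899.

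**Figure D2:**
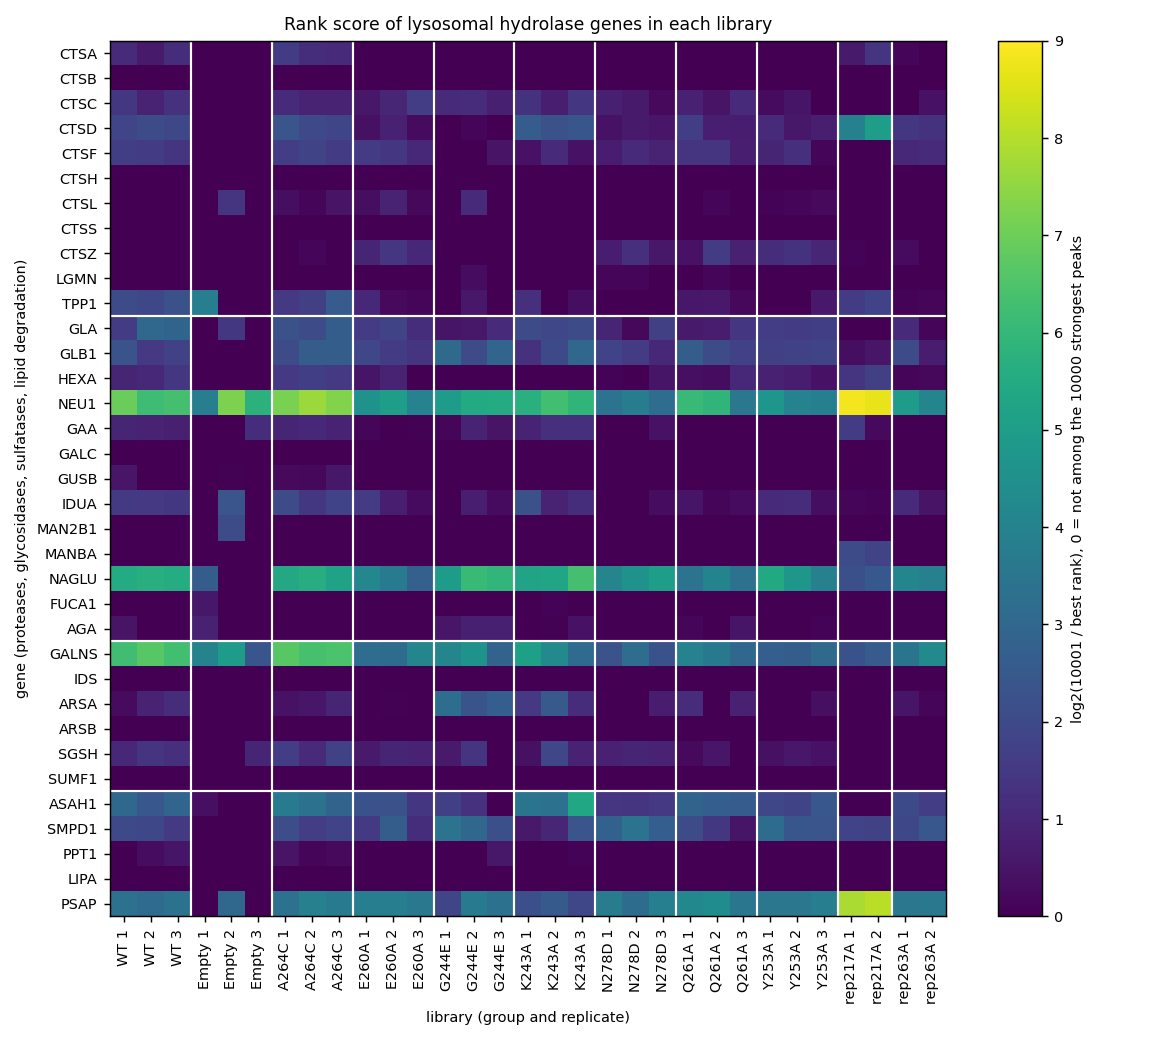
Rank score of each of the 35 members (y axis, ordered by role) in each of the 31 libraries (x axis), a log2 scale of the best rank, where 0 means no peak among the 10000 strongest. NEU1, GALNS and NAGLU are bright in WT and A264C, NEU1 and PSAP are brightest in rep217A, and the Empty columns are mostly dark.

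For the test, the best rank of each gene was turned into a score, log2 of the first rank past the threshold over its own rank, with 0 where the gene was not strong, so that a difference of 1 is a rank better by a factor of 2. The fit pools the spread over all groups, and a group scored 0 throughout adds none. The p-values of such genes may therefore be too small. In WT against Empty, 13 of the 26 members tested were higher in WT and 0 lower by limma with Benjamini-Hochberg adjustment, against 16.4% higher and 21.9% lower (38.2% in either direction) among all 8696 genes tested. The other 9 members were strong in fewer than 2 libraries and were not tested. The median difference of the 26 was 0.89, against -0.19 over all genes tested. The 5 of smallest adjusted p were NAGLU, CTSD, CTSA, CTSF and ASAH1, and the others were CTSC, GLA, GLB1, HEXA, PSAP, GALNS, SGSH and SMPD1. At the depth limit of Empty, reached by thinning the recovered pileups, 1 member (CTSD) passed the test where 4.48% of genes did, and 13 to 22 members were strong in WT against 4 to 7 in Empty. Ranked by fold in place of −log10 q, 5 members were higher in WT and 3 lower, and the differences of ASAH1 (-0.082), GALNS (-2.48), NAGLU (-0.545), PSAP (-0.77) and SGSH (-0.12) changed sign. No share of all genes by fold is given here, so these counts cannot be read as particular to the members.

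CTSA encodes cathepsin A (protective protein), a carboxypeptidase that also shields sialidase and beta-galactosidase from breakdown. The gene lies at chr20:45891335-45898820, and the WT summits lay 48 to 56 bp before its start. Its best peak ranked 4795, 6382 and 4388 in WT, with folds of 10.4 to 11.5, and 40276, 32393 and 58295 in Empty. The 2 groups did not overlap. A264C at 3360, 4377 and 4772 lay within or above the WT range, and rep217A at 6425 and 3918 reached from just below it to above it. By contrast E260A ranked 20796, 22224 and 18123, K243A 26488, 22342 and 31259, N278D 27818, 18429 and 22256, and Y253A 16851, 21432 and 24845. Q261A at 11515, 20845 and 14644 and G244E at 11850, 9791 and 12035 lay nearer to the threshold, and 1 of the rep263A libraries passed it (9228 and 14383). All libraries of these last groups ranked below every WT library.

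The CTSA score was 0.97 ± 0.28 in WT (SD, n = 3) and 0 in every Empty, E260A, K243A, N278D, Q261A and Y253A library. The WT excess over Empty was 0.97 with a standard error of 0.14 (limma, adjusted p = 1.52e-05). The groups scored 0 throughout enter this standard error with no spread, though their ranks varied. Neither it nor the p-values for CTSA measure that variation. Against WT, CTSA fell in 7 of the 9 variants, with limma adjusted p from 3e-05 in G244E to 0.00088 in rep263A. The difference was 0.31 with a standard error of 0.14 in A264C and 0.03 with one of 0.16 in rep217A (limma, adjusted p = 1 for each). At the common depth CTSA still passed in E260A, G244E, K243A, N278D and Y253A, and did not in Q261A (-0.97, limma adjusted p = 0.0987) or rep263A (-1.002, 0.174). It did not pass in WT against Empty at the depth limit of Empty either (0.93, limma adjusted p = 0.122), and these 3 differences were about as large as at the libraries' own depths. In 2 of the 3 G244E libraries the summit had moved to 815 and 1067 bp before the start, while in E260A it stayed 56 to 72 bp before it.

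GLA encodes alpha-galactosidase A, the enzyme that is deficient in Fabry disease. It lies at chrX:101397803-101407925 on the minus strand, and the WT summits lay 187 to 192 bp before its start. Its best peak ranked 3344, 1244 and 1327 in WT, with folds of 15.8 to 18.7, and 29384, 3615 and 41168 in Empty. WT and Empty did not overlap, though 1 Empty library came close to the lowest WT library. GLA was strong in every library of 8 of the 9 variants, unlike CTSA, and K243A at 2345, 2651 and 2416 lay within the WT range. The exception was rep217A at 21424 and 11477. The G244E libraries at 7098, 6741 and 4771 all lay below the WT range, while those of N278D at 5253, 8831 and 3100 overlapped with it.

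On the score scale GLA stood at 2.50 ± 0.80 in WT (SD, n = 3) and 0.49 ± 0.85 in Empty, a difference of 2.01 with a standard error of 0.41 (limma, adjusted p = 0.000518). It fell in 5 variants, with differences of -2.50 in rep217A (limma, adjusted p = 0.000243), -1.87 in rep263A (0.014), -1.79 in G244E (0.00222), -1.58 in Q261A (0.0171) and -1.57 in N278D (0.0102). The differences in E260A (-0.96), Y253A (-0.87), K243A (-0.48) and A264C (-0.17) did not pass the test, with limma adjusted p of 0.15, 0.22, 0.62 and 1 and a standard error of 0.41 each. At the common depth GLA passed in G244E, N278D and rep217A, and not in Q261A (-1.48, limma adjusted p = 0.366) or rep263A (-2.19, 0.217). Ranked by fold, the G244E difference was 0.16.

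HEXA encodes the alpha subunit of beta-hexosaminidase A, the enzyme lost in Tay-Sachs disease. It lies at chr15:72340924-72376014, and the WT summits lay 62 to 70 bp past its end of higher coordinate. The best peak ranked 5192, 4924 and 3715 in WT, with folds of 14.0 to 14.8. In Empty 2 libraries had no peak near the gene and the third had one at rank 13922. A264C ranked 3526, 3106 and 3551 and rep217A 3913 and 3097, within or above the WT range. The weakest were G244E at 27942, 22383 and 22241 and K243A at 44576, 19198 and 12859, which were strong in no library. E260A ranked 6966, 5444 and 14524, N278D 9492, 9940 and 7076, and rep263A 9130 and 8682. All of these lay below every WT library.

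The HEXA score was 1.13 ± 0.26 in WT (SD, n = 3) and 0 in all Empty, G244E and K243A libraries, a difference of 1.13 with a standard error of 0.20 (limma, adjusted p = 0.000102 for WT against Empty). It fell in G244E (adjusted p = 0.000171), K243A (0.000523), N278D (0.00178), rep263A (0.00849) and E260A (0.0262) by limma. Q261A (-0.57, adjusted p = 0.0977), Y253A (-0.47, 0.149), A264C (0.43, 1) and rep217A (0.39, 0.295) did not pass the limma test. HEXA passed in no variant at the common depth, with differences from -0.71 in G244E to -0.21 in N278D among these 5. With summits counted anywhere over the gene, the N278D difference was 0.065.

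**Figure D3:**
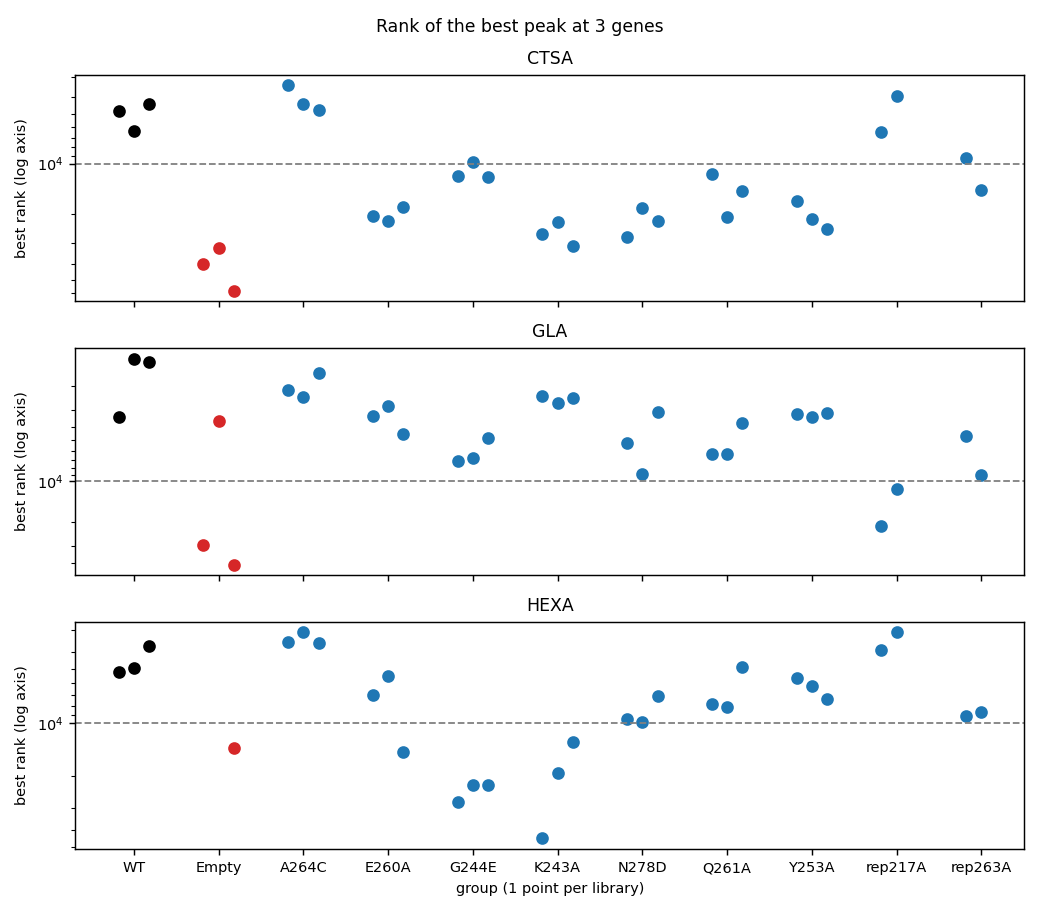
Rank of the best peak (y axis, log scale, best at the top) at CTSA, GLA and HEXA in each library by group (x axis), with WT in black, Empty in red, variants in blue and a dashed line at rank 10000. Libraries with no peak have no point. CTSA is below the line in all libraries of E260A, K243A, N278D, Q261A and Y253A, GLA only in rep217A among the variants, and HEXA in all libraries of G244E and K243A.

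Among the other proteases, CTSD encodes cathepsin D, the main aspartic protease of the lysosome. The gene lies at chr11:1752755-1763927 on the minus strand, and it carried peaks at its start and about 3 kb inside the gene. In WT the inner site ranked 2729, 2395 and 2593 and the start site 7308, 4912 and 6319, so the inner site led in every library. In rep217A the order was turned, with the start site at 652 and 314 and the inner site at 5301 and 10428. The inner site also led in all A264C, K243A, N278D and rep263A libraries, while E260A had the start site ahead at 7525, 5578 and 8241 against 9784, 15864 and 15290. The E-box printed above lies at the start site.

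By its best peak CTSD rose in rep217A by 2.50 with a standard error of 0.27 (limma, adjusted p = 2.02e-07), and this held at the common depth (0.00654). The score fell in 5 variants, with differences of -1.92 in G244E (limma, adjusted p = 2.73e-06), -1.45 in E260A (0.00014), -1.42 in N278D (0.00016), -1.16 in Y253A (0.00141) and -0.92 in Q261A (0.0166). At the common depth these falls passed except in Q261A (-0.56, limma adjusted p = 0.753). With the window cut to 1000 bp, which leaves the inner site out, the fall passed in G244E alone of these 5 (-0.71, limma adjusted p = 0.0369), and the others were -0.20 in E260A (0.95), -0.49 in N278D (0.269), -0.03 in Y253A (1) and -0.06 in Q261A (1). In WT against Empty it was higher by 1.96 (limma, adjusted p = 9.15e-07), with Empty ranks of 25598, 19459 and 21559, and by 0.71 (0.0281) in the 1000 bp window.

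**Figure D4:**
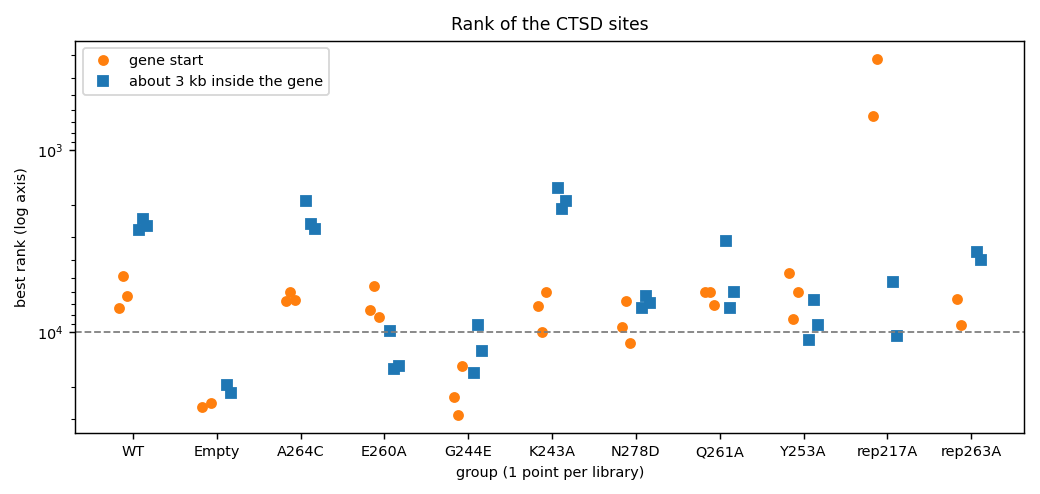
Rank of the best CTSD peak (y axis, log scale, best at the top) within 250 bp of the start site (circles) and of the site about 3 kb inside the gene (squares), by group (x axis), 1 point per library, with a dashed line at rank 10000. The inner site leads in all WT libraries at 2395 to 2729, and the start site leads in rep217A at 314 and 652.

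CTSF, which encodes the cysteine protease cathepsin F, ranked 3119, 3386 and 3796 in WT and 31983, 25264 and 36509 in Empty, without overlap (limma, adjusted p = 1.52e-05). It fell in rep217A (32704 and 99950, adjusted p = 8.7e-05), G244E (41228, 9776 and 7152, 0.000109), K243A (0.0131) and Y253A (0.0274) by limma. At the common depth the CTSF difference was only -0.06 in rep217A. It turned to 0.38 in G244E, 0.62 in K243A and 1.11 in Y253A, and none of these passed. Ranked by fold it turned to 0.20 in G244E and 0.63 in K243A, the latter past the threshold (limma, adjusted p = 0.00222). CTSC encodes a dipeptidyl peptidase that activates serine proteases, and it ranked 3610, 5439 and 4125 in WT and 18752, 20891 and 43249 in Empty. It fell in rep217A (18033 and 41742, adjusted p = 0.00146), Y253A (0.00714) and rep263A (0.0273) by limma. At the common depth CTSC passed in none of these (limma, adjusted p = 0.229 in rep217A, 0.408 in Y253A and 0.512 in rep263A). TPP1, a tripeptidyl peptidase gene, ranked 2385, 2606 and 2140 in WT, and the difference from Empty did not pass (0.80, limma adjusted p = 0.311). In 1 Empty library a peak ranked 702 at the opposite end of the gene, 357 bp past it, and not at the site used in WT. TPP1 fell in N278D, where it ranked 11939, 12792 and 11603, by 2.08 (limma, adjusted p = 0.0258). It also fell in G244E (0.0282), where the difference was 0.16 when ranked by fold, and Y253A (0.0488). None of these TPP1 falls passed at the common depth (limma, adjusted p = 0.167 in N278D, 0.149 in G244E and 0.398 in Y253A).

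CTSZ, the gene of the carboxypeptidase cathepsin Z, was called higher than WT in 4 variants. It ranked 16000, 10547 and 15743 in WT and was strong in every library of E260A (5199, 3725 and 4957), N278D (6071, 4263 and 6748), Q261A (7314, 3373 and 5690) and Y253A (4464, 3986 and 5066). These 4 groups did not overlap with WT, and the score rose by 1.13 in E260A, 0.84 in N278D, 0.94 in Q261A and 1.16 in Y253A (limma, adjusted p = 0.000272, 0.00434, 0.00296 and 0.000206). The site lay 4223 to 4241 bp past the far end of CTSZ and 4157 bp from an end of NELFCD, so it is at the edge of the window for both genes. CTSZ passed in none of the 4 at the common depth, with differences of 0.78 in E260A, 0.81 in N278D and 0.81 in Y253A, and 0.21 in Q261A. The cathepsin genes CTSB, CTSH and CTSS and the asparaginyl endopeptidase gene LGMN were strong in no WT library, and their best WT ranks were 12556, 34052, 126384 and 22867.

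NEU1, which encodes the lysosomal sialidase, had the best mean rank of the members in WT. It ranked 81, 137 and 124 in WT and 692, 67 and 183 in Empty, so the 2 groups overlapped, and the difference did not pass (0.87, limma adjusted p = 0.256). Only 2 of the 3 Empty summits lay near the WT site at 31862897 to 31862907, and the other was at 31863999. In rep217A NEU1 ranked 22 and 24, above every WT library, and the score rose by 2.28 (limma, adjusted p = 0.0185), a call that was lost at the common depth. It fell in N278D (922, 708 and 1082) by 3.00 (limma, adjusted p = 0.00117), in Y253A by 2.29 (0.0131) and in E260A by 1.96 (0.0346), and these 3 held at the common depth. Ranked by fold, the E260A difference was 0.033. At the common depth the NEU1 fall passed in rep263A as well (limma, adjusted p = 0.0115). At the libraries' own depths, with ranks of 325 and 587, it did not (0.108).

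NAGLU encodes an N-acetylglucosaminidase that degrades heparan sulfate. It ranked 217, 200 and 209 in WT and 1599, 39978 and 27831 in Empty, a difference of 4.70 with a standard error of 0.53 (limma, adjusted p = 3.96e-07). At the depth limit of Empty this difference was 3.05 and did not pass (limma, adjusted p = 0.248). NAGLU fell in rep217A (2178 and 1804) by 3.25 (limma, adjusted p = 0.000256), in E260A by 2.04 (0.0105) and in Q261A by 1.96 (0.0243). None of these falls passed at the common depth, with differences of -2.575 in rep217A (limma, adjusted p = 0.123), -0.198 in E260A and -0.687 in Q261A. Ranked by fold, the rep217A difference was 1.86 and passed in the opposite direction (limma, adjusted p = 0.026). G244E at 319, 148 and 164 and K243A at 124 to 262 overlapped with WT.

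Among the other glycan enzymes, GLB1 (beta-galactosidase) ranked 2041, 3561 and 2959 in WT, had a peak in only 1 Empty library, at 14900, and fell in rep217A (8004 and 6925, limma adjusted p = 0.0177). GAA (acid alpha-glucosidase) ranked 5282, 5337 and 5807 in WT and fell in Y253A, where it was strong in no library (10293, 12513 and 23182, limma adjusted p = 0.0388). IDUA (alpha-L-iduronidase) ranked 3456, 3568 and 3627 in WT and fell in N278D (10973, 10639 and 8203, limma adjusted p = 0.0465). AGA, whose enzyme cuts the link between asparagine and glycans, rose in G244E (6778, 5765 and 5818, limma adjusted p = 0.0299), all ranks better than in WT, though the difference was -0.15 when ranked by fold. At the common depth none of these calls on GLB1, GAA, IDUA and AGA passed. Their limma adjusted p was 0.882, 0.138, 0.192 and 0.859 in turn. MANBA, a mannosidase gene, was strong only in rep217A, at 2394 and 2777, against 19796 to 31575 in WT (limma, adjusted p = 3.22e-15). Only these 2 libraries took MANBA past the filter, so that it had to differ. GALC, MAN2B1 and FUCA1, which encode a galactosylceramidase, a mannosidase and a fucosidase, were strong in no WT library. GUSB, the beta-glucuronidase gene, was strong in 1 WT library at 6840.

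GALNS, which encodes a sulfatase of keratan sulfate and chondroitin sulfate, had WT ranks of 132, 98 and 130 and Empty ranks of 619, 320 and 1888. These did not overlap, and the difference was 2.60 with a standard error of 0.53 (limma, adjusted p = 0.000567). Only 2 of the 3 Empty summits lay near the WT site at 88857041 to 88857046. The other was at 88812003, by the opposite end of the gene, so the difference does not compare 1 site throughout. A264C at 98, 120 and 114 lay within the WT range. GALNS fell in each of the other 8 variants, with differences of -3.95 in rep217A (2052 and 1652), -3.81 in N278D, -3.58 in Y253A, -2.90 in E260A, -2.83 in Q261A, -2.53 in G244E, -2.51 in rep263A and -2.2 in K243A (limma, adjusted p from 2.3e-05 in N278D to 0.0114 in rep263A). It still lay among the 10000 strongest peaks of every library. At the common depth the fall passed in N278D and Y253A. Ranked by fold, the difference from WT turned to 2.88 in G244E and 2.50 in K243A, and that between WT and Empty to -2.48, each past the threshold, and it was 1.56 in rep217A and 1.05 in rep263A, which did not pass.

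ARSA, the cerebroside sulfatase gene, moved the other way in G244E. It ranked 8416, 5503 and 4397 in WT and 1051, 1997 and 1548 in G244E, without overlap, a rise of 1.99 with a standard error of 0.32 (limma, adjusted p = 6.23e-05) that held at the common depth (0.00141). K243A at 3592, 1740 and 4521 did not pass (limma, adjusted p = 0.0605). SGSH, a heparan sulfatase gene, ranked 4912, 3826 and 4218 in WT and fell in rep217A (24465 and 40877, limma adjusted p = 0.016) and rep263A (9858 and 10098, 0.0479). At the common depth neither SGSH fall passed (limma, adjusted p = 0.379 in rep217A and 0.779 in rep263A). IDS and ARSB were strong in no library, and nor was SUMF1, whose product activates the sulfatases. SUMF1 ranked 14255, 15668 and 10543 in WT, had no peak in Empty, and held both CACGTG and CACATG near its start.

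In lipid degradation, PSAP encodes the precursor of the saposins, which present sphingolipids to their hydrolases. It ranked 962, 1136 and 960 in WT and 23503, 1228 and 21157 in Empty, with a difference of 2.29 (limma, adjusted p = 0.00178). In rep217A it ranked 43 and 37, a rise of 4.67 with a standard error of 0.60 (limma, adjusted p = 2.92e-06) that held at the common depth at 4.59 (0.000302). The summits in rep217A lay within 10 bp of those in WT. In the other variants the difference lay between -1.07 in K243A and 0.74 in Q261A and did not pass.

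ASAH1, the acid ceramidase gene, fell in rep217A, where PSAP rose. It ranked 1231, 1824 and 1302 in WT, 7812, 22845 and 22828 in Empty and 19286 and 10651 in rep217A. The difference was -2.81 in rep217A (limma, adjusted p = 7.81e-05), -1.81 in G244E (0.00232) and -1.37 in N278D (0.0292), and the first held at the common depth. Ranked by fold, the G244E difference was 0.80 and passed in the opposite direction (limma, adjusted p = 0.0396). In N278D the best peaks lay at another site, 1430 to 1433 bp inside the gene end of higher coordinate, against 851 to 858 bp in WT. K243A at 900, 960 and 245 ranked above every WT library without passing the test (1.26, limma adjusted p = 0.0547). SMPD1, which encodes acid sphingomyelinase, ranked 2513, 2586 and 3438 in WT and had no peak in any Empty library (limma, adjusted p = 0.00218), and its differences from WT passed in no variant. PPT1, a palmitoyl-protein thioesterase gene, was strong in 2 WT libraries, and LIPA, the acid lipase gene, ranked 43663 to 59410 in WT.

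Counts over the 26 members tested differed between the variants. In A264C no member passed the limma test, where 0.069% of all genes did, and 2 members (CTSA and HEXA) had an unadjusted p under 0.05. The share of all genes by unadjusted p is not given here, so these 2 cannot be read as particular to the members. In the other 8 variants more members were called lower than higher. A gene scored 0 in WT cannot fall. Strong in every WT library were 19 of these 26 members, against 4265 of the 8696 genes tested. The members thus had more room to fall. Their falls beyond the shares of all genes given here cannot be read as particular to them. N278D had 9 lower and 1 higher (background 10.2% lower, 2.98% higher), Y253A 8 lower and 1 higher (9.9% and 2.79%) and E260A 6 lower and 1 higher (8.28% and 4.71%). Q261A had 5 lower and 1 higher (6.0% and 1.29%, 7.29% in all), rep263A 6 lower and 0 higher (4.69% and 1.05%, 5.74% in all), and K243A 4 lower and 0 higher (4.96% and 5.86%). G244E had 8 lower and 2 higher (8.77% and 16.0%). In rep217A 8 were lower and 4 higher (12.1% and 7.93%, 20.1% in all), the 4 being CTSD, NEU1, PSAP and MANBA, of which MANBA had to differ and counts for nothing against the background. The split depended on the ranking in 5 variants: by fold in place of −log10 q, G244E had 8 higher and 1 lower, K243A 9 higher and 1 lower, rep217A 6 higher and 2 lower, N278D 2 higher and 1 lower, and Q261A 1 higher and 0 lower. The shares of all genes above are for −log10 q. None is given by fold, so the counts by fold cannot be read as particular to the members. The median difference of the members was -0.64 in Y253A, -0.59 in N278D, -0.53 in rep263A, -0.40 in Q261A, -0.33 in E260A, -0.25 in G244E, -0.18 in rep217A, -0.06 in K243A and 0.09 in A264C. Over all genes tested it was 0.0 in these comparisons, except 0.125 in G244E and 0.05 in K243A. The medians carry the same limit, since a gene scored 0 in both groups has a difference of 0. All 9 comparisons share the 3 WT libraries, so their calls are not independent of one another.

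With the WT and variant libraries thinned to the common depth of 0.108, fewer of the 27 members then tested passed. They numbered 5 in N278D (4.26% of all genes), 5 in rep217A (10.2%, MANBA among the 5), 4 in G244E (14.2%), 4 in Y253A (4.08%), 3 in E260A (4.58%), 1 in K243A (4.05%) and 1 in rep263A (0.868%). The shares in G244E and K243A were near those of all genes. At this depth 15 members were strong in every WT library, where 15.9% of all genes were. The members thus had more room to fall here too, and no set of genes matched for WT score was tested. In Q261A 0 passed (1.55% of all genes), and 7 had an unadjusted p under 0.05 by limma. No share of all genes by unadjusted p is given here, so the 7 cannot be read as particular to the members. The part of depth in the calls that were lost was not tested further. Leaving out 1 replicate number in all groups gave 5 to 9 calls in N278D, 4 or 5 in Y253A, 4 or 5 in E260A, 2 to 5 in Q261A, 2 to 5 in K243A, 1 to 5 in rep263A and 7 to 12 in rep217A, whose lowest counts rest on 1 library of that group.

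**Figure D5:**
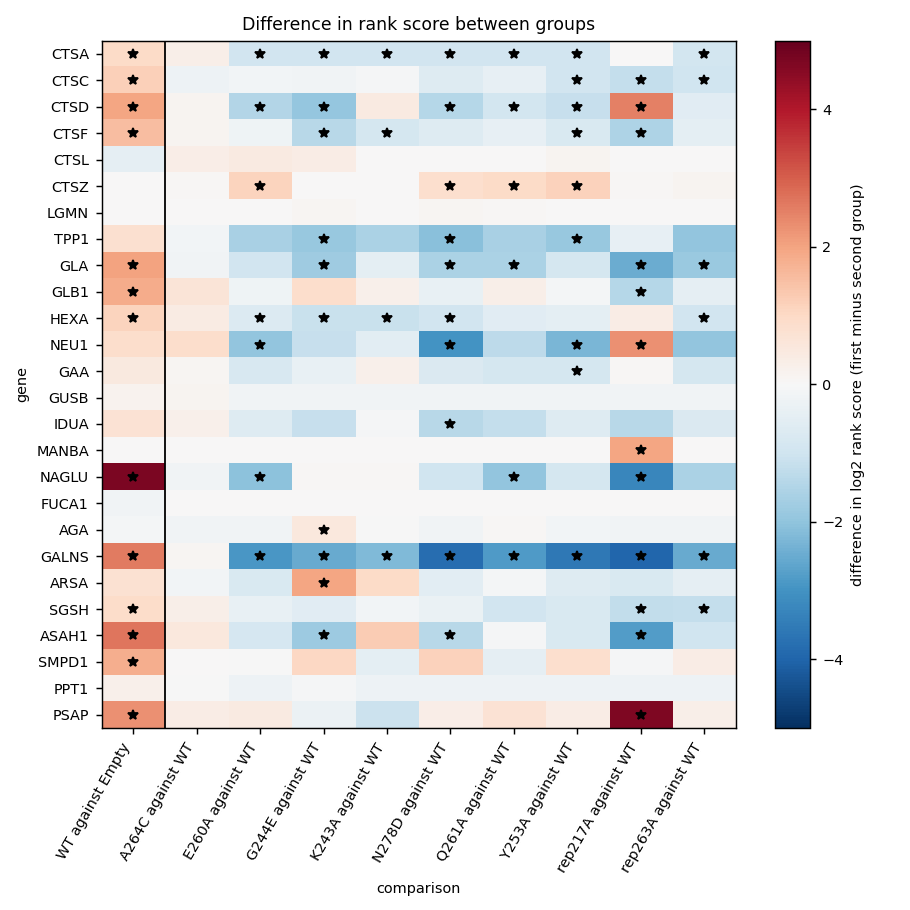
Difference in rank score (color, log2 scale) for the 26 members tested (y axis) in WT against Empty and in each variant against WT (x axis), red where the first group is higher and blue where it is lower, with stars at a limma adjusted p under 0.05. CTSA and GALNS are blue and starred in most variants, CTSZ is red in 4, and PSAP, CTSD, NEU1 and MANBA are red in rep217A.

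Other genes of the lysosome were counted beside the hydrolases. Of 15 further hydrolase genes 8 were strong in every WT library and 2 in every Empty library, against 21.4% and 8.01% of all genes. Of the 11 tested 2 were higher and 2 lower in WT than in Empty by limma, near the 16.4% and 21.9% of all genes. Of 10 genes for enzyme delivery 5 and 0 were strong, and 2 of 7 tested were higher in WT. The 12 genes of the lysosomal membrane, such as LAMP1 and CD63, were all strong in every WT library, as 2 were in Empty, and 10 of 12 were higher in WT. By limma 6 or 7 membrane genes fell in E260A, G244E, K243A, N278D, Y253A, rep217A and rep263A. In these variants the share of all genes called lower ran from 4.69% in rep263A to 12.1% in rep217A. In Q261A 4 fell (6.0% of all genes) and in A264C 0 fell (0.0%), and 2 rose, both in rep217A (7.93%). All 12 membrane genes were strong in every WT library and so could fall, unlike many of all genes tested. Their calls at the common depth are not given here.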

How the data were processed

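Each of 33 CUT&Tag libraries was deposited as a peak list on hg38, called per library. Per the submitters' processing notes the tools were MACS2, Bowtie2 (2.3.4.3) and bcl2fastq (2.20.0.422). The MACS2 version, the control library and duplicate removal are not given in the sources used here. Each peak carries, as deposited by the authors, a fold enrichment (ratio over local background), −log10 p and −log10 q, a summit offset and a score, the last not used. Of the G244E lists 2 hold exactly 300000 peaks, and lists are ordered by significance.

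Peaks were ranked by −log10 q within each list, with ties broken at random (seed 1), since in Empty 13656 to 16400 peaks were tied with the last of the 10000 strongest. Scores were fitted with limma 3.58.1 in R 4.3.3, without covariates, over all 31 distinct libraries and the 8696 protein-coding genes strong in at least 2 of them, two-sided, with Benjamini-Hochberg adjustment over all genes and a threshold of 0.05. On simulated data of G244E against WT (8696 genes, 5 draws), 10.8% of genes shifted by 1 and 45.4% of those shifted by 2 on the score scale were recovered, and 12.7% of calls were false, more than the nominal share. Pileups were recovered as whole numbers from fold and p for the 30000 strongest peaks and thinned by binomial sampling; only peaks already called can be thinned. The alternatives varied the number of strongest peaks, window, ranking, filters, depth, replicate block and replicates.

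The members, gene lists and tests were chosen with earlier results of these data known. Named with values were CTSA, GLA and HEXA, the 6 members of best mean WT rank, those strong in all WT and no Empty libraries or the reverse, those strong in no WT library, and those that passed a comparison. Promoter sequences came from a RefSeq table in which 25 of 35 members were matched. Variants and WT were thinned to a common depth of 0.108, and WT against Empty to the depth limit of Empty, 0.03.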

Additional observations from a re-analysis of the deposited data

How the results depend on the processing

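Of 87 results on single genes, 10 kept their side of the threshold under every alternative that gave a value. ARSA in G244E and PSAP and CTSD in rep217A passed, in the same direction, MANBA in rep217A did so but had to differ, and CTSA, GLA and HEXA in A264C, GLA in K243A, HEXA in Y253A and CTSA in rep217A did not pass. The number of members that passed changed by over 1.5 times as follows, and the cause was not tested except that 5000 peaks and omitted replicates leave fewer genes and samples. Shares of all genes were given above for the thinned counts only. The other counts cannot be read as particular to the members. With the 5000 strongest peaks it was 7 in WT against Empty, 6 in G244E, 6 in N278D, 5 in Y253A and 3 in rep263A. Ranked by fold it was 8 in WT against Empty, 10 in K243A (9 of them higher), 3 in N278D, 1 in E260A, 1 in Q261A, 1 in Y253A and 0 in rep263A, where 3 had an unadjusted p under 0.05 by limma. Thinned, it was 1 in WT against Empty at the depth limit of Empty, and at the common depth of the other groups 3 in E260A, 4 in G244E, 1 in K243A, 5 in N278D, 0 in Q261A, 4 in Y253A, 5 in rep217A and 1 in rep263A. Leaving out 1 replicate number gave 4 to 5 in E260A, 2 to 5 in K243A, 5 to 9 in N278D, 2 to 5 in Q261A, 4 to 5 in Y253A, 7 to 12 in rep217A and 1 to 5 in rep263A, where a lone library of rep217A or rep263A is assumed to vary like the other groups.

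Members strong in every library of a group numbered, ranked by fold, 11 in WT, 12 in A264C, 6 in E260A, 5 in N278D, 7 in Q261A, 8 in Y253A and 9 in rep263A. With the 5000 strongest peaks they numbered 9 in E260A, 7 in G244E, 9 in K243A, 7 in N278D, 6 in Q261A, 8 in Y253A and 8 in rep263A, and with 20000 they numbered 17 in G244E and 22 in rep263A. At the common depth they were 13 in A264C (16.0% of all genes) and 9 in E260A (13.2%), and with a −log10 q of at least 5 only 1 in Empty. No share of all genes is given for the other settings here.

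Ranking by fold turned the sign of NEU1 in E260A (0.033), AGA (-0.15), ASAH1 (0.80), CTSF (0.20), GALNS (2.88), GLA (0.16) and TPP1 (0.16) in G244E, CTSF (0.63) and GALNS (2.50) in K243A, GALNS (1.56) and NAGLU (1.86) in rep217A, and GALNS (1.05) in rep263A. In WT against Empty it turned ASAH1 (-0.082), GALNS (-2.48), NAGLU (-0.545), PSAP (-0.77) and SGSH (-0.12). Thinning turned CTSF in G244E (0.38), K243A (0.62) and Y253A (1.11), and summits anywhere over the gene turned HEXA in N278D (0.065).

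Groups share replicate numbers. The deviations of same-numbered libraries had a median r of 0.0033 over 108 pairs, with 13 over 0.1 and a highest r of 0.39. Libraries of different number had a median r of -0.0032 over 216 pairs, with 12 over 0.1 and a highest r of 0.27. By the medians the numbers were not taken as pairs, though some same-numbered libraries may have deviated together. With the replicate number as a block the counts were 13 in WT against Empty, 0 in A264C, 7 in E260A, 10 in G244E, 4 in K243A, 11 in N278D, 6 in Q261A, 8 in Y253A, 13 in rep217A and 5 in rep263A. Leaving out tied peaks, and G244E replicate 2, were alternatives chosen after seeing the data, and moved no count of calls by over 1.5 times. Depth limits what Empty, G244E and K243A can show, and a gene not strong there need not be unbound.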
